A study of Mus musculus with 24 samples.

Results

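Gastrocnemius muscle lacking Notch2 in its fibres was compared directly between streptozotocin diabetes and hindlimb unloading. The libraries were chosen by their sample titles, the 4 of Notch2-mKO-Diabetes and the 4 of Notch2-mKO-Unloading, which are 8 of the 24 libraries in the series. All 8 came from C57BL/6 mice of genotype Mlc1fCre/+;Notch2f/f, so the deletion is shared and is not what the comparison varies. Unloaded mice were taken after 7 days of hindlimb suspension, and diabetic mice 14 days after a single intraperitoneal streptozotocin injection at 150 mg per kg, so the treatment and its duration cannot be told apart. The series also holds 4 untreated Notch2-mKO libraries and the same 3 conditions in mice carrying Notch2f/f without Cre, labelled WT. The series title sets the question of whether loss of Notch2 alters wasting in these models. Cre from the Mlc1f locus is active in skeletal muscle fibres, and the other cells of whole muscle keep the gene. The labels do not say that replicates are separate animals, so the tests use the spread among libraries of a group, which may be technical in part.

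Streptozotocin destroys the insulin-producing beta cells of the pancreas. With little insulin, muscle takes up less glucose and burns more fatty acid, a switch in which PPAR nuclear receptors and the kinase PDK4 take part, and glucocorticoids and FOXO factors drive protein breakdown. Suspension of the hindlimbs removes the load of bearing weight instead, and the muscle shrinks while the supply of insulin is intact. Slow and oxidative fibres, which hold posture, are known to depend most on load.

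The 8 libraries held 34661389 to 53899360 estimated counts, with 14301 to 14722 genes above 0 in each. Levels below are CPM, counts scaled to an equal library size with TMM factors, and 3 counts correspond to 0.0783 CPM in the shallowest of the 8. All 10 skeletal muscle fibre markers passed the expression filter, and 1 of 6 cardiac markers did. Unloading replicate 1 stood apart from the others, with a TMM factor of 1.28 against 0.917 to 0.965 in the other unloaded libraries, and the lowest level of the fast myosin Myh4 among the 8 libraries, 40359 CPM against 65501 to 98269 CPM. Unloading replicate 4 had the highest levels of the ubiquitin ligase genes Fbxo32 and Trim63. Of 76 called genes followed through each alternative, Stbd1, Arrdc2, Pik3r1, Psmb7, Timp1, Ier5, Ppara, Notch4, Flt1, Mcam, Fcer1g, Slc38a2, Slc7a2, Oat, Nfkbia and Fasn lost the call without unloading replicate 1, and Ppp1r15a, Nr1d1, Trp53i11, Tmem37, Mpc1, Cryab, Fhl2 and Slc25a30 without unloading replicate 4. Aplnr, Arrdc4, Psmb6, Psmd12, Psmc3, Bdh1, Myl3, Mylk4, Nos1, Atf5, Ucp2, Tyrobp and Cd163 lost it without either one. Each of these genes kept its sign. Many of them, such as Oat, Slc7a2 and Ier5, also lost the call without other libraries, diabetic ones included. For those genes the loss is not particular to unloading replicates 1 and 4. Stbd1 lost its call in 1 of the 17 alternatives, the fit without unloading replicate 1. Acta2, Xbp1, Aph1a, Agpat2, Atg4a and Bhlhe41 are listed at 0 in all 8 libraries, so no level is drawn from them.

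Diabetic muscle differed from unloaded muscle in genes of fatty acid use, in hormone responsive and stress genes and in myosin genes. At a Benjamini-Hochberg adjusted p below 0.05 in edgeR's quasi-likelihood test, 254 genes were higher and 146 lower in diabetes, which is 1.95% and 1.12% of the 13048 genes tested, and 3.07% in all. Of the genes called higher, 120 differed by more than 2-fold, and of those called lower, 34. The 4 diabetic and 4 unloaded libraries did not overlap for 367 of the 400 genes called, beside 1311 genes, or 10%, among all genes tested. The median log2 fold change of all genes tested was -0.03. The number called fell to 264, 195, 260 and 241 without diabetes replicates 1, 2, 3 and 4, and to between 280 and 342 without 1 unloaded library. It was 605 with DESeq2, of which 398 were among the 400.

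**Figure D1:**
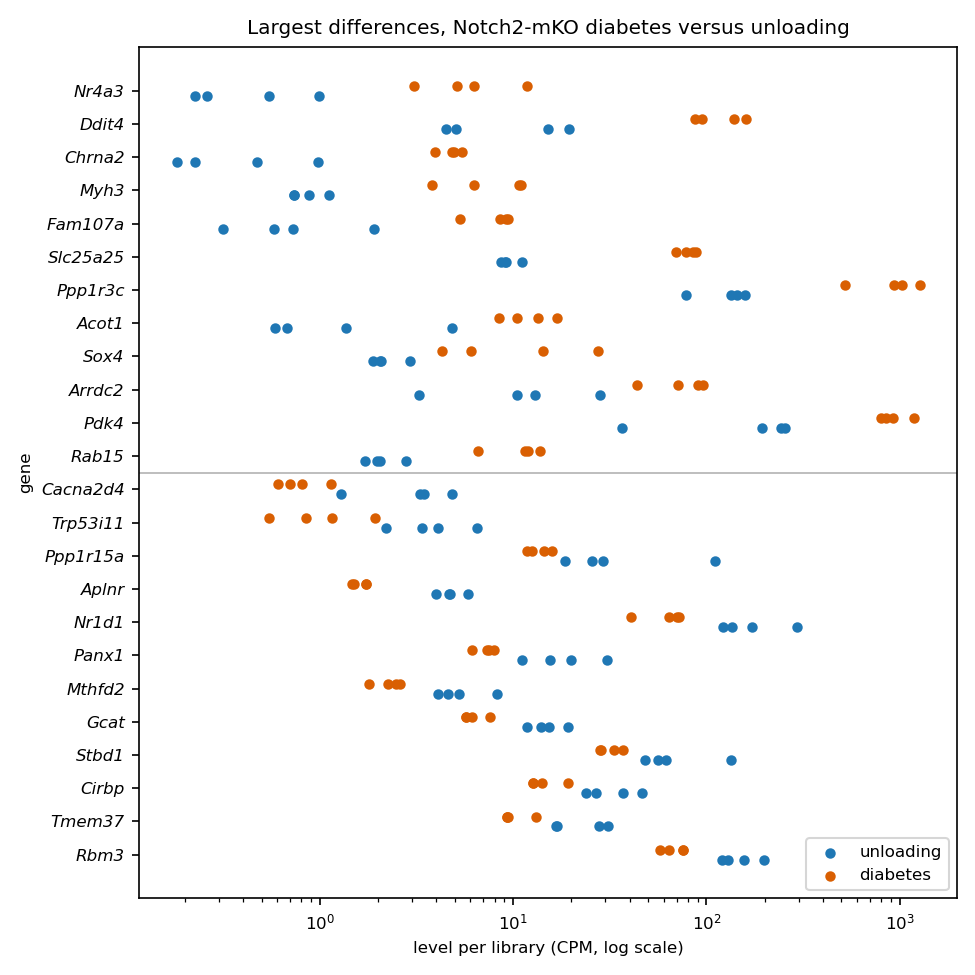
Level of the 24 genes with the largest differences in each of the 8 libraries (CPM, log axis), with 1 point per library, diabetes in orange and unloading in blue. The upper 12 genes were higher in diabetes and the lower 12 lower, and by the rule for naming them no diabetic library overlaps an unloaded one.

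Genes of fatty acid use were higher in diabetes for a large share of the list. Of 42 tested members of this list, 21 were higher in diabetes and 1 lower, beside 1.95% and 1.12% of all genes, and the median log2 fold change was 0.57. Fabp3 (chromosome 4, 130308738 to 130315463, plus strand), the muscle protein that carries fatty acids through the cytosol, had the smallest p of these members. It stood at 811, 749, 657 and 537 CPM in diabetes replicates 1 to 4 and at 150, 168, 175 and 201 CPM in unloading replicates 1 to 4. The lowest diabetic library was thus above the highest unloaded one, and the difference was 3.97-fold (log2 1.99, SE 0.147, edgeR adjusted p = 6.5e-09).

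Uptake and entry into the cell came next. Slc27a1, a fatty acid transporter, was measured at 122, 147, 119 and 109 CPM in diabetes and at 39, 53, 54.7 and 69.2 CPM in unloading (log2 fold change 1.20, edgeR adjusted p = 2.0e-05). Cd36, the main fatty acid receptor of the muscle membrane, was at 162 to 220 CPM in diabetes and 71 to 125 CPM in unloading, a log2 difference of 0.94. Neither gene overlapped between the groups. Angptl4, a secreted inhibitor of lipoprotein lipase and a classical PPAR target, was 4.01-fold higher, at 5.52 to 11.6 CPM against 0.812 to 3.03 CPM. Lpl itself had a log2 fold change of 0.67 and was not called (edgeR adjusted p = 0.0765). Vldlr, a receptor for triglyceride-rich lipoproteins, was the 1 member called lower (log2 -0.74), with 119 to 182 CPM in diabetes and 172 to 313 CPM in unloading, ranges that overlap.

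Several enzymes of mitochondrial beta-oxidation were higher as well. Hadha and Hadhb encode the subunits of the trifunctional protein and are transcribed from neighbouring starts on opposite strands of chromosome 5. Hadhb was at 302, 274, 247 and 239 CPM in diabetes and at 168, 150, 155 and 169 CPM in unloading (log2 fold change 0.73, edgeR adjusted p = 8.8e-05). Hadha was at 450 to 511 CPM against 263 to 345 CPM (log2 0.64). Ech1, an isomerase for unsaturated fatty acids, was at 305, 301, 305 and 269 CPM against 153, 173, 165 and 182 CPM (log2 0.81, edgeR adjusted p = 2.0e-05). Each of these genes separated the groups without overlap. The acyl-CoA dehydrogenases Acadl (log2 0.86) and Acadm (0.53), the thiolase Acaa2 (1.01), Decr1 (0.71), Eci1 (0.56) and the electron carrier Etfdh (0.51) were also called higher. Among the carnitine steps, Cpt1b (0.59), Cpt1a (0.68) and the carrier Slc25a20 (0.53) were called, and Cpt2 (log2 0.32, edgeR adjusted p = 0.247) was not.

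The largest estimate of the list was that of a thioesterase. Acot1, which releases free fatty acids from acyl-CoA in the cytosol, was at 13.4, 16.8, 10.4 and 8.42 CPM in diabetes and at 0.587, 1.36, 0.677 and 4.81 CPM in unloading. Its difference was 6.52-fold (log2 2.70, SE 0.457, edgeR adjusted p = 0.0014), with unloading replicate 4 the highest of the unloaded libraries. The mitochondrial thioesterase Acot2 was 3.95-fold higher. Ucp3 (log2 1.63, edgeR adjusted p = 0.0833) and Plin5 (1.21, 0.0607) had large estimates that did not pass the test. Between 17 and 24 members of the list were called higher under the alternatives run.

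**Figure D2:**
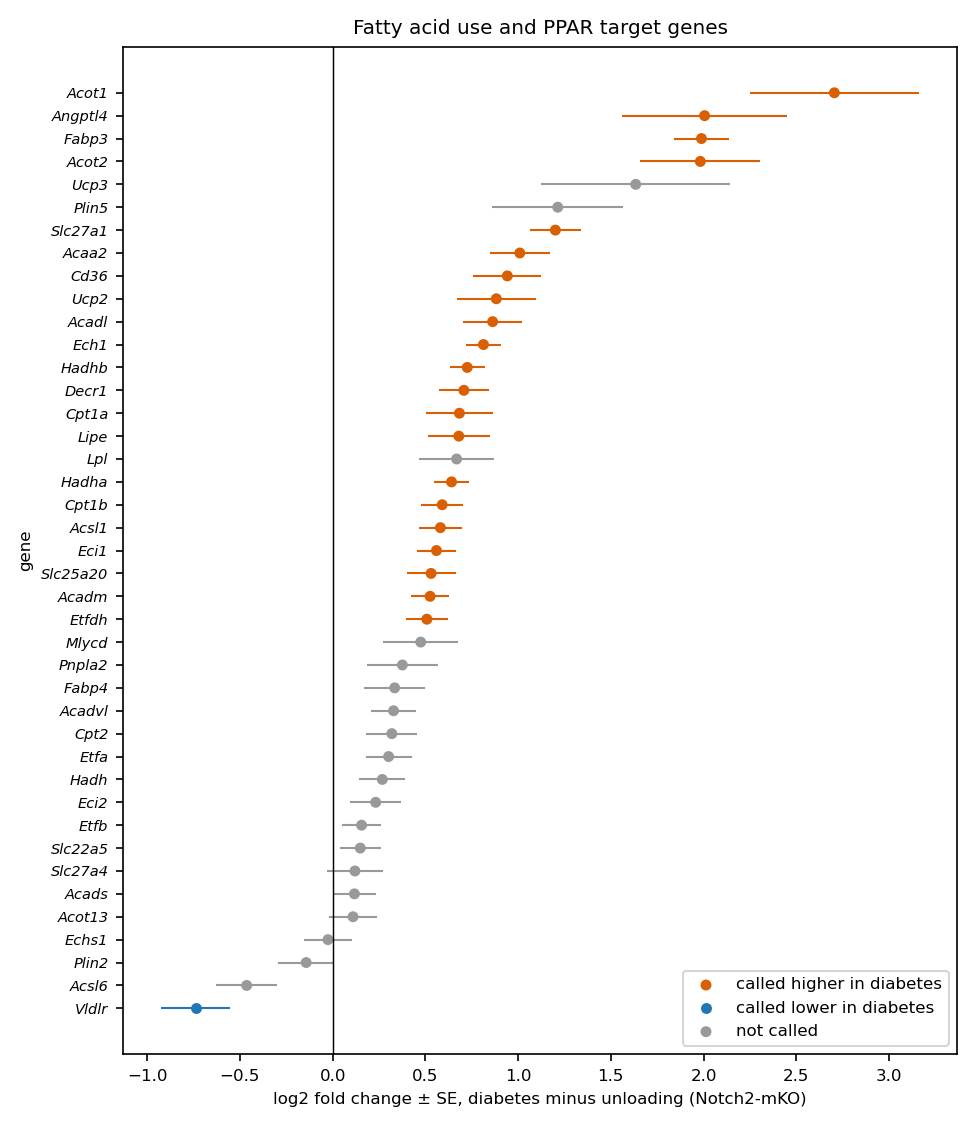
Log2 fold change with its standard error, diabetes minus unloading, for the genes of fatty acid use in Notch2-mKO muscle, with 1 of the 42 tested, not called, left out of the plot. The 21 genes called higher are in orange, Vldlr, called lower, in blue, and genes that did not pass the test in grey. Estimates run from -0.74 to 2.70.

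The fatty acid genes were also set against the 4 untreated Notch2-mKO libraries. In diabetes against control, where 3.05% of all genes were called higher and 2.54% lower, 15 members were called higher and 0 lower. In unloading against control, where 4.10% were called higher and 3.20% lower, 1 was higher and 3 were lower. Both comparisons use the same 4 control libraries. Acadl had a log2 fold change of 1.01 in diabetes and 0.15 in unloading, and Ech1 of 0.74 and -0.08. Fabp3, at 279 to 357 CPM in the controls, lay between the treated groups, with log2 fold changes of 1.09 in diabetes and -0.90 in unloading, both called (edgeR adjusted p = 0.00039 and 0.00095). Acaa2 had 0.29 in diabetes, not called, and -0.72 in unloading (edgeR adjusted p = 0.0101).

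Few genes of lipid synthesis and glucose use were called. Of 25 genes of lipid synthesis, 0 were higher and 2 lower, beside 1.95% and 1.12% of all genes. The median log2 fold change was -0.19. Scd1, the desaturase that makes monounsaturated fatty acids, was at 47.3, 18.7, 9.90 and 8.52 CPM in diabetes and at 104, 65.6, 240 and 29.3 CPM in unloading (log2 -2.38, edgeR adjusted p = 0.0108). The ranges overlapped, and without unloading replicate 3 the log2 fold change was -1.65 (edgeR adjusted p = 0.0686). Fasn, the fatty acid synthase, was at 16.4 to 27.7 CPM against 18.6 to 78.0 CPM (log2 -1.13, edgeR adjusted p = 0.0467), and without that same library the log2 fold change was -0.76 (edgeR adjusted p = 0.207). Fasn lost its call in 10 of the 17 alternatives.

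Pdk4, the kinase that switches off pyruvate dehydrogenase and so spares glucose, was at 929, 804, 851 and 1184 CPM in diabetes and at 36.5, 243, 193 and 254 CPM in unloading. The groups were far apart, with unloading replicate 1 the lowest library, and the difference was 5.18-fold (log2 2.37, SE 0.489, edgeR adjusted p = 0.00686). Against control its log2 fold change was 1.68 in diabetes (edgeR adjusted p = 0.0401) and -0.69 in unloading (0.376). Of 14 tested genes of the complex and its partners, Pdk4 was the 1 called higher and the pyruvate carrier gene Mpc1 the 1 called lower. Over all genes the shares were 1.95% and 1.12%. Mpc1 (log2 -0.40) was at 257 to 286 CPM against 322 to 395 CPM, and it lost its call in 8 of the 17 alternatives. Of 18 glycolytic enzymes tested 0 were called, beside 3.07% of all genes, with log2 fold changes between -0.36 and 0.34 and a median of -0.02.

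Among 29 genes of glucose uptake and glycogen 2 were higher and 2 lower, beside 1.95% and 1.12% of all genes. Tbc1d4, the Akt substrate that holds glucose transporters inside the cell until insulin acts, was at 52.9, 51.2, 51.2 and 52.1 CPM in diabetes and 16.2, 22, 25.3 and 26.8 CPM in unloading (log2 1.20, edgeR adjusted p = 0.00193). Ppp1r3c, which targets a phosphatase to glycogen, was at 523, 932, 1031 and 1272 CPM against 144, 159, 78.5 and 134 CPM, a 7.29-fold difference. The untreated libraries spanned 171 to 1298 CPM for this gene and so covered the diabetic range. Stbd1, a glycogen-binding protein, was lower in diabetes (log2 -1.23). Its unloaded value of 134 CPM in replicate 1 lay above 47.9 to 61.7 CPM in the others, and without that library the log2 fold change was -0.77 (edgeR adjusted p = 0.0815). Arrdc4, of the arrestin family, was lower too (log2 -0.72), and without unloading replicate 1 this list had 0 members called lower.

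Some genes that respond to glucocorticoids and FOXO factors were higher in diabetes. Of 26 tested members of the glucocorticoid and FOXO list 7 were higher and 0 lower, beside 1.95% and 1.12% of all genes. The median log2 fold change was 0.72, and 24 estimates were above 0. Ddit4, an inhibitor of mTORC1 that is induced by glucocorticoids, was at 87.5, 94.9, 139 and 160 CPM in diabetes and at 4.47, 15.2, 5.04 and 19.5 CPM in unloading (10.9-fold, log2 3.45, SE 0.567, edgeR adjusted p = 0.00104). No diabetic library came near an unloaded one. The controls ranged from 8.64 to 91.7 CPM, and against them Ddit4 had a log2 fold change of 1.40 in diabetes, not called (edgeR adjusted p = 0.109), and of -2.05 in unloading (0.0246).

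Cebpb and Cebpd encode transcription factors of the acute and glucocorticoid responses. Cebpb was at 48.6 to 68.3 CPM in diabetes and 15 to 27.1 CPM in unloading (log2 1.32), and Cebpd at 54.0 to 111 CPM and 6.02 to 39.8 CPM (log2 1.99). Gadd45g, a growth arrest gene, was also higher (log2 1.40), as was Errfi1, a feedback inhibitor of the EGF receptor (log2 0.87). The list's other called members, Pdk4 and Pik3r1, belong to a second list as well, as does Ddit4. Between 4 and 12 members of the list were called higher under the alternatives, with 4 left when unloading replicate 2 or 3, or diabetes replicate 1 or 4, was left out. Foxo1, the transcription factor that insulin holds out of the nucleus, was at 23.2, 48.8, 55.9 and 90.9 CPM in diabetes against 12.9, 15.7, 12.6 and 16 CPM in unloading (3.83-fold, edgeR adjusted p = 0.00952). Pik3r1, the regulatory subunit of PI3 kinase, was higher as well (log2 1.05), although unloading replicate 4, at 23.7 CPM, reached above diabetes replicate 3 at 23.1 CPM. With Ddit4 these made 3 of 34 tested genes of insulin and IGF signalling, beside 1.95% of all genes, and 0 were lower.

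Promoters of the called genes were searched for short motifs in the 250 bases before each RefSeq start of the GRCm38.p6 build, on both strands, with the motifs chosen after the values were seen. Promoter sequences were matched for 196 of the genes called higher, 118 of those called lower and 10363 of all genes tested. The glucocorticoid response element, written as GNACA, any 3 bases and TGTNC, was present for 5 of the 196 (2.55%), for 0 of the 118, and for 0.357% of all. These 5 promoters are shown because they carry this motif, with the matching letters in capitals. None of the 5 genes is among the called members of the glucocorticoid and FOXO list, and a link to the hormone was not tested.
Fam107a, chr14:8309780-8310029, minus strand: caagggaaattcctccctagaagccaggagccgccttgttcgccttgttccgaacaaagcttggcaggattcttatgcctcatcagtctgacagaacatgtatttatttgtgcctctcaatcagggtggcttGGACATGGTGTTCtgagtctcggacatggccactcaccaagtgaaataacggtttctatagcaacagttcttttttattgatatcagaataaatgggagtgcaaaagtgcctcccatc
Slc10a6, chr5:103629404-103629653, minus strand: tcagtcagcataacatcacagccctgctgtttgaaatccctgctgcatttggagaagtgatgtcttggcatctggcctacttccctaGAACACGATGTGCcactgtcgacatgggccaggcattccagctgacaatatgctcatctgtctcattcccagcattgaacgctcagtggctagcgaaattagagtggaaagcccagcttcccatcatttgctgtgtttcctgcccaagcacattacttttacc
Tinagl1, chr4:130174803-130175052, minus strand: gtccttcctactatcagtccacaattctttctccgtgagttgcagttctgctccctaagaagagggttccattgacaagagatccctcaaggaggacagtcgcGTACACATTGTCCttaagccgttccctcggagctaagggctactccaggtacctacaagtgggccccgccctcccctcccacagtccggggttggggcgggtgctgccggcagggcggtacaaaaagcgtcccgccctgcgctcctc
Map3k6, chr4:133240568-133240817, plus strand: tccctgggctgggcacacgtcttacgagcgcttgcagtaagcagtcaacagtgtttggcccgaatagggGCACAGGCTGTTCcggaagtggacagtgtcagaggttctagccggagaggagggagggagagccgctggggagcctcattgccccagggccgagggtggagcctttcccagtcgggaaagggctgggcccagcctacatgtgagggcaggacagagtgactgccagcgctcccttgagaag
Kcna5, chr6:126535556-126535805, minus strand: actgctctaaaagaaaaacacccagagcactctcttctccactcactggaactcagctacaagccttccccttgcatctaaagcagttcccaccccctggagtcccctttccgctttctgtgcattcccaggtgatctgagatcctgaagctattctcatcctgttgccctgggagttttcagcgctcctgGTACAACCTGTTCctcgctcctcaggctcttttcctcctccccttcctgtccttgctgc
Fam107a, an actin-binding stress gene, was at 5.31, 8.58, 9.43 and 9.16 CPM in diabetes and at 0.316, 0.574, 0.723 and 1.9 CPM in unloading (9.07-fold, edgeR adjusted p = 0.00554). Tinagl1, a matrix protein gene, was at 18.6 to 32.2 CPM against 8.45 to 10.4 CPM (log2 1.61). The kinase gene Map3k6 (log2 1.55), the steroid sulphate transporter gene Slc10a6 (1.85) and the potassium channel gene Kcna5 (1.14) were higher too, and none of these 5 genes overlapped between the groups. A match is a description of these letters and not a site of binding.

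The other motifs searched gave these shares. The cAMP response element TGACGTCA was present for 2.89% of all genes with a promoter, 4.08% of those higher and 4.24% of those lower, including Slc25a25 among the higher and Ppp1r15a among the lower genes. The FOXO motif TGTTTAC was at 2.72%, 3.57% and 2.54% in the same order, and the E-box CACGTG at 9.82%, 7.65% and 10.2%. The PPAR direct repeat, AGGTCA 2 times with 1 base between, was at 0.0482% of all and in 0 called genes. Its relaxed form had NGGNCA at the first place, and at the second the same letters with the leading base fixed as adenine. This relaxed form was at 0.830%, 0.510% and 0.847%. The ERR motif TNAAGGTCA was at 0.878%, 1.02% and 0%, the NR4A motif AAAGGTCA at 1.10%, 1.02% and 0%, and the heat shock element, GAA, TTC and GAA with 2 bases between each, at 0.502% of all and in 0 called genes. The D-box TTANNTAA was at 4.06%, 5.61% and 5.08%, and the amino acid response element TGATGNAA at 2.36%, 3.06% and 1.69%. Some motifs overlap, since the relaxed repeat contains the strict one.

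The ubiquitin ligase genes that mark muscle wasting gave no calls. Fbxo32, which encodes atrogin-1, was at 285, 310, 529 and 432 CPM in diabetes and at 150, 325, 190 and 1234 CPM in unloading. Trim63, which encodes MuRF1, was at 304, 339, 551 and 517 CPM against 133, 235, 183 and 822 CPM. For both, unloading replicate 4 was the highest of the 8 libraries, and the other 3 unloaded libraries lay mostly below the diabetic ones. The log2 fold change of Fbxo32 was -0.29 (SE 0.542, edgeR adjusted p = 0.867), and without that library it was 0.82. That of Trim63 was 0.32 (SE 0.435, edgeR adjusted p = 0.799), and without that library 1.23. Of the 25 tested ubiquitin ligases of muscle wasting 0 were called, beside 3.07% of all genes, with a median of 0.02. Fbxo30 (log2 -0.01, SE 0.268) and the myostatin gene Mstn (0.01, SE 0.167), a secreted brake on muscle growth, had no direction that held across the alternatives.

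A few proteasome genes were lower in diabetes than in unloading. Of 34 tested subunit and assembly genes 5 were lower and 0 higher, beside 1.12% and 1.95% of all genes. All 34 estimates were below 0, and the median log2 fold change was -0.39. Psmb7, a catalytic ring subunit, was at 204 to 218 CPM in diabetes and 249 to 367 CPM in unloading (log2 -0.47, edgeR adjusted p = 0.0304), without overlap. Psmb6 (log2 -0.46), Psmd12 (-0.46), Psmc3 (-0.48) and Psmd6 (-0.53) were the others. The count ran from 0 to 8 under the alternatives and was 0 with only the compared groups in the fit, without unloading replicate 1 and without diabetes replicate 1, 2 or 4. Against the shared controls, 13 of the 34 proteasome genes were higher in unloading, beside 4.10% of all genes, and 1 in diabetes, beside 3.05%, with medians of 0.45 and 0.07. Of 33 tested autophagy and lysosome genes 0 were called in diabetes against unloading (median -0.11).

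**Figure D3:**
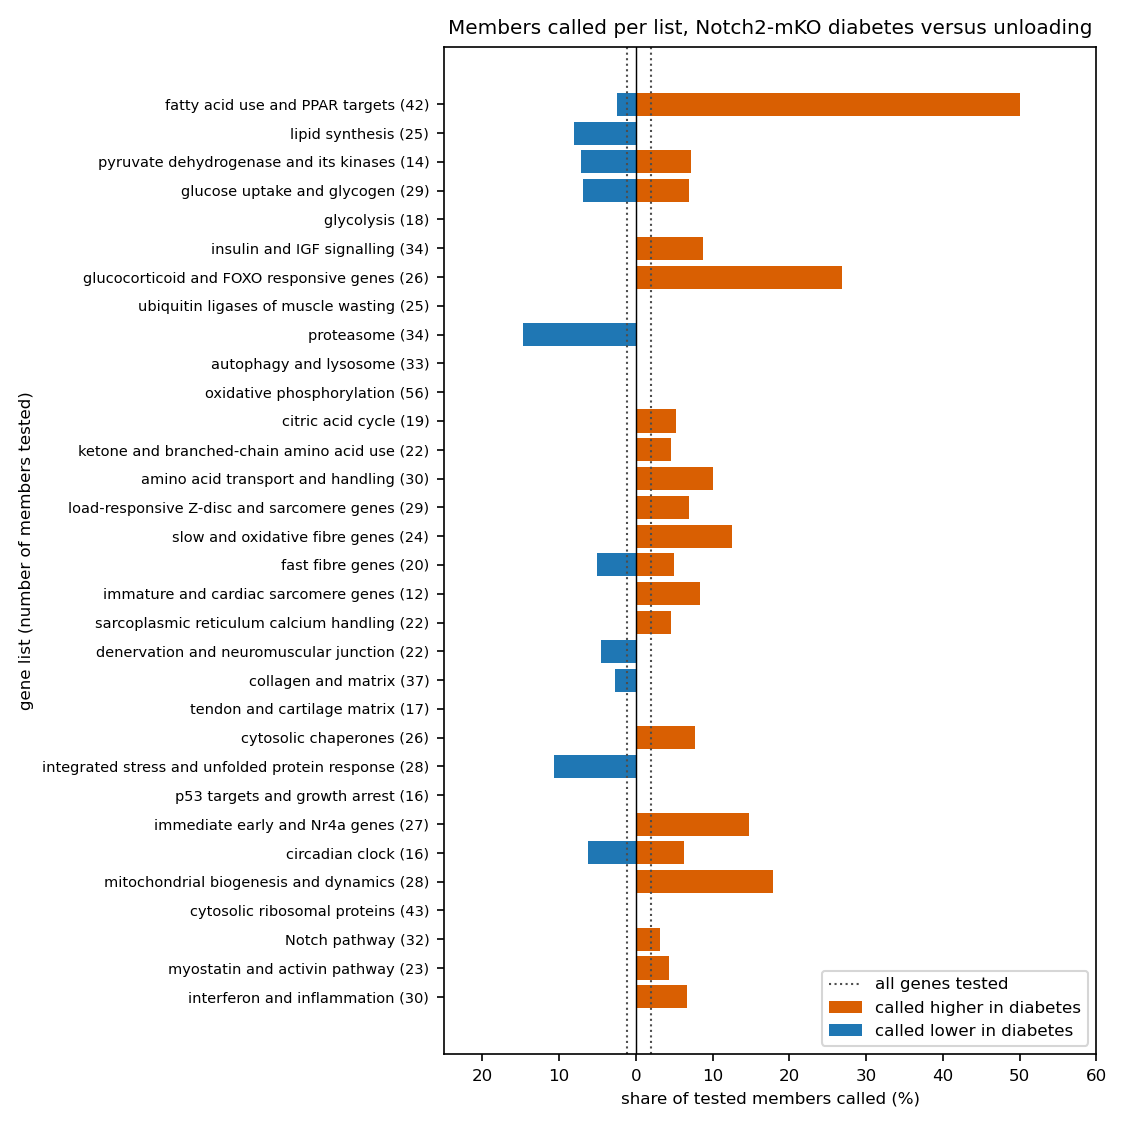
Share of the tested members of each pathway list that was called higher (orange, to the right) or lower (blue, to the left) in diabetes than in unloading, with the number tested in brackets. Dotted lines mark the shares over all genes tested, 1.95% higher and 1.12% lower. Fatty acid use stands out with 21 of 42 members higher, and glycolysis, ubiquitin ligases and oxidative phosphorylation have no member called.

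Myosin genes of different fibre types differed in opposite directions. Myh2, the myosin heavy chain of fast oxidative type IIa fibres, was at 2177, 2584, 2293 and 1962 CPM in diabetes and at 1114, 1277, 985 and 535 CPM in unloading (2.31-fold, log2 1.21, edgeR adjusted p = 0.00177). Myh1, the chain of the faster type IIx fibres, went the other way, at 3148, 2760, 2647 and 2420 CPM against 4860, 5553, 4582 and 5752 CPM (log2 -0.92, edgeR adjusted p = 0.0033). The groups did not overlap for either gene. Myh4 of type IIb fibres (log2 -0.04, SE 0.182) and Myh7 of slow fibres (0.57, SE 0.369) were not called.

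Both myosin genes were also set against the controls. Myh2 was at 2407 to 3170 CPM in untreated muscle, and its log2 fold change was -1.51 in unloading (edgeR adjusted p = 0.00038) and -0.30 in diabetes (0.413). Myh1 was at 4023 to 4927 CPM in untreated muscle, with 0.22 in unloading (edgeR adjusted p = 0.460) and -0.70 in diabetes (0.0206). Of 24 tested slow and oxidative fibre genes 3 were higher and 0 lower in diabetes than in unloading. Over all genes the shares were 1.95% and 1.12%. In this list 23 estimates were above 0 and the median was 0.47. The others called were Myl3, a slow light chain, at 275 to 437 CPM against 94.8 to 216 CPM (log2 1.13), and Casq2, the calcium store protein of slow and cardiac muscle, at 13.7 to 21.0 CPM against 7.38 to 9.86 CPM (log2 1.09). Of 20 fast fibre genes 1 was higher, the kinase gene Mylk4, and 1 lower, Myh1.

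Myh3, the embryonic myosin chain, was at 6.26, 11, 10.7 and 3.82 CPM in diabetes and at 1.11, 0.731, 0.881 and 0.728 CPM in unloading (9.21-fold, SE 0.449 on the log2 scale, edgeR adjusted p = 0.00021). Against untreated muscle it was higher in diabetes (log2 1.51, edgeR adjusted p = 0.0326) and lower in unloading (-1.69, 0.0246). It was the 1 gene called among 12 tested immature and cardiac sarcomere genes. Chrna2, a nicotinic acetylcholine receptor subunit, was at 4.81, 5.41, 4.96 and 3.91 CPM against 0.181, 0.47, 0.226 and 0.971 CPM (10.2-fold, edgeR adjusted p = 0.00157). Of 22 tested genes of denervation and the neuromuscular junction 1 was called, beside 3.07% of all genes. It was Nos1, the neuronal nitric oxide synthase of the sarcolemma, which was lower (log2 -0.74). Among 29 load-responsive genes 2 were higher, beside 1.95% of all genes. They were the small chaperone gene Cryab (log2 0.82) and the LIM protein gene Fhl2 (1.39). Both calls were lost without unloading replicate 4 and without diabetes replicate 1 or 2.

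**Figure D4:**
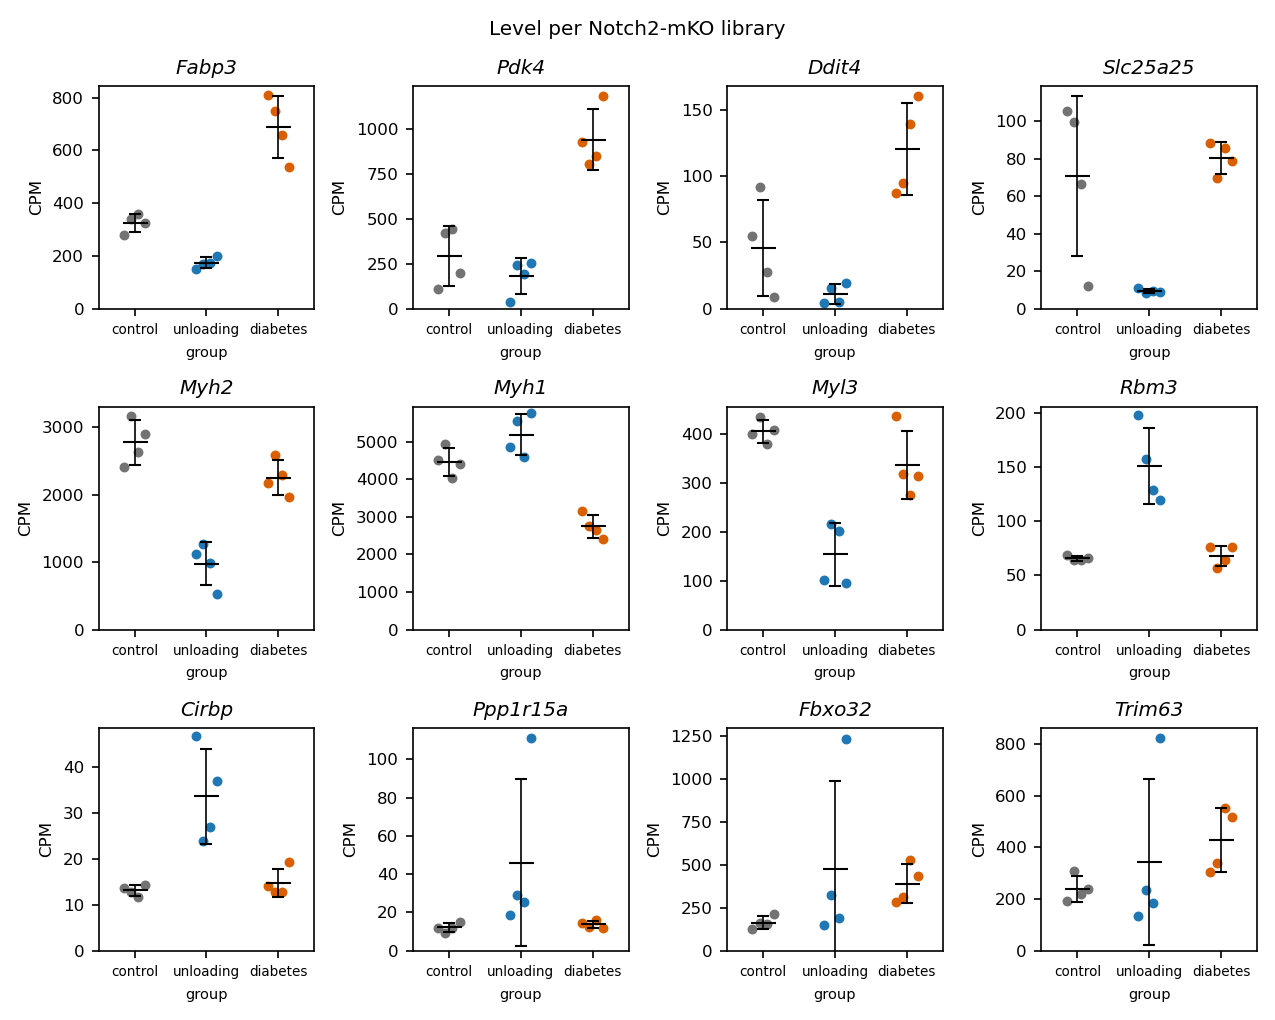
Level of 12 genes in the control, unloading and diabetes libraries of Notch2-mKO muscle (CPM, linear axes from 0). Points are libraries, bars the mean and SD of 4 libraries, and an SD that reaches below 0 is clipped at the axis. Fabp3 shows 3 separate levels, Myh2 and Myl3 are low in unloading, Myh1 is low in diabetes, Rbm3 and Cirbp are high in unloading, and 1 unloaded library sets the mean of Fbxo32 and Trim63.

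Some mitochondrial carrier genes were higher in diabetes, and no respiratory chain subunit was called. Slc25a25, the mitochondrial ATP-Mg and phosphate carrier, was at 88.6, 69.6, 85.7 and 78.7 CPM in diabetes and at 11.1, 8.59, 9.15 and 9.02 CPM in unloading (8.52-fold, log2 3.09, SE 0.426, edgeR adjusted p = 0.00018). The untreated libraries held 105, 99.8, 66.4 and 12.3 CPM. Its log2 fold change against control was 0.18 in diabetes (edgeR adjusted p = 0.828) and -2.91 in unloading (0.00046), with control replicate 4 at the unloaded level. Of 28 tested genes of mitochondrial biogenesis and dynamics 5 were higher and 0 lower, beside 1.95% and 1.12% of all genes. The count of higher genes was 2 without unloading replicate 1 or 3 or diabetes replicate 2 or 4. The others were the uncoupling protein gene Ucp2 (log2 0.88), the carriers Slc25a30 (2.09) and Slc25a34 (1.46), and Ppara, the fatty acid sensing PPAR (0.88). Of 56 subunits of oxidative phosphorylation 0 were called (log2 -0.29 to 0.32, median -0.03). Idh2, the mitochondrial NADP isocitrate dehydrogenase, was the 1 gene called of 19 in the citric acid cycle, at 232 to 299 CPM against 86.9 to 158 CPM (log2 1.08, edgeR adjusted p = 0.00079).

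Nr4a3 had the largest log2 fold change of the genes named here. This orphan nuclear receptor gene, induced by exercise and adrenergic signals, was at 3.05, 5.11, 6.22 and 11.7 CPM in diabetes and at 0.226, 0.261, 0.542 and 0.991 CPM in unloading (12.6-fold, SE 0.70 on the log2 scale, edgeR adjusted p = 0.0039). Of 27 tested immediate early and Nr4a genes 4 were higher and 0 lower, beside 1.95% and 1.12% of all genes. The others called were Zfp36 (log2 1.56), Maff (1.13) and Ier5 (0.81), and the median of the list was 0.55. Without unloading replicate 3 the count was 2. Among 16 tested circadian clock genes 1 was higher and 1 lower, and the median log2 fold change was 0.08. The higher one, Nfil3, a repressor in the clock output, was at 33.9 to 58.0 CPM against 9.79 to 15 CPM (4.04-fold, edgeR adjusted p = 0.00079). Nr1d1, which encodes the clock repressor REV-ERB alpha, was lower at 40.9 to 71.8 CPM against 122 to 293 CPM (log2 -1.54), and without unloading replicate 4 the log2 fold change was -1.20 (edgeR adjusted p = 0.0732), with the call also lost without diabetes replicate 4. Sox4 (5.84-fold), a developmental transcription factor, Rab15 (5.15-fold), of vesicle traffic, and the arrestin family gene Arrdc2 (5.49-fold) complete the 12 largest higher genes. Arrdc2 kept its sign but lost its call in 6 of the 17 alternatives.

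The cold-inducible RNA-binding protein genes and some stress genes were lower in diabetes than in unloading. Rbm3 was at 75.9, 57.3, 64.1 and 76 CPM in diabetes and at 199, 157, 129 and 120 CPM in unloading (log2 -1.15, SE 0.136, edgeR adjusted p = 2.0e-05). Cirbp was at 12.6 to 19.2 CPM against 23.8 to 46.6 CPM (log2 -1.19, edgeR adjusted p = 0.00193). Untreated libraries held 63.8 to 68.8 CPM of Rbm3 and 11.7 to 14.3 CPM of Cirbp. Against them Rbm3 had a log2 fold change of 1.20 in unloading and 0.06 in diabetes, and Cirbp of 1.36 and 0.16.

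Of 28 tested genes of the integrated stress and unfolded protein response 0 were higher and 3 lower, beside 1.95% and 1.12% of all genes. Only 1 was left without unloading replicate 4 or diabetes replicate 2, 3 or 4. Mthfd2, a mitochondrial folate enzyme driven by ATF4, was at 1.78 to 2.58 CPM against 4.06 to 8.25 CPM (log2 -1.29), and Atf5 was lower as well (-0.53). Ppp1r15a, the phosphatase subunit that ends the stress response, was at 14.5, 12.5, 15.9 and 11.7 CPM against 18.5, 29.2, 25.5 and 111 CPM. Its log2 fold change was -1.75 (edgeR adjusted p = 0.0281) and -0.83 (0.251) without unloading replicate 4, the library with the highest Fbxo32. The call was lost in 8 of the 17 alternatives. Gcat, of threonine and glycine breakdown, was at 5.67 to 7.61 CPM against 11.8 to 19.2 CPM (log2 -1.26, edgeR adjusted p = 0.00021).

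The remaining large lower differences were in membrane proteins and receptors. Panx1, a channel that releases ATP, was at 6.10 to 7.91 CPM in diabetes and 11.1 to 30.6 CPM in unloading (log2 -1.42, edgeR adjusted p = 0.00271). Cacna2d4, a calcium channel subunit (log2 -1.99), Trp53i11, a p53 induced gene (-1.85), Aplnr, the apelin receptor (-1.58), and Tmem37, a calcium channel related protein (-1.17), were called in the main fit and lost the call in 4, 10, 8 and 5 of 17 alternatives. These 4 genes kept their sign throughout. For Aplnr each of the 8 fits without 1 library lost the call.

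Notch2 itself was at 1.70, 2.16, 1.15 and 2.12 CPM in diabetes and at 1.47, 1.38, 1.58 and 1.29 CPM in unloading (log2 0.32, SE 0.238, edgeR adjusted p = 0.573). The ranges overlapped. Because the counts take in undeleted exons and cells outside the fibres, this level does not check the genotype. Of 32 tested Notch pathway genes 1 was called, a share of 3.125% that is near the 3.07% of all genes. It was Notch4, the endothelial receptor, higher at 7.83 to 12.4 CPM against 4.08 to 6.79 CPM (log2 0.84, edgeR adjusted p = 0.0203). Of 15 endothelial markers 3 were higher and 0 lower, beside 1.95% and 1.12% of all genes. The 3 were Ptprb (log2 0.68), Eng (0.52) and Flt1 (0.52), and 4 of the 15 estimates were below 0. The count was 1 without diabetes replicate 2 or 3. The summed level of the 15 was 302 to 400 CPM in diabetes and 239 to 334 CPM in unloading, ranges that overlap. Their part in the Notch4 difference was not tested. In bulk samples fewer cells of a type and less RNA per cell cannot be told apart.

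Other lists had few members called, set beside 1.95% of all genes called higher and 1.12% lower. For the amino acid, ketone, chaperone and inflammation lists below the count was 0 without unloading replicate 3, among other settings. Of 30 tested genes of amino acid transport and handling 3 were higher, the transporters Slc38a2 (log2 1.16) and Slc7a2 (0.96) and the enzyme Oat (0.47), and of 22 of ketone and branched-chain amino acid use 1 was, the ketone body dehydrogenase Bdh1 (0.84). Of 26 chaperones 2 were higher, the heat shock gene Hspa1a (log2 1.28) and Cryab. The interferon and inflammation list had 2 of 30 higher, among them Nfkbia (log2 0.93), the inhibitor of NF-kappa B. The myostatin and activin list had 1 of 23, the BMP target Id1 (log2 1.07). Of 43 cytosolic ribosomal protein genes and 16 p53 targets 0 were called.

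Markers of other cell types gave few calls, set beside 1.95% of all genes called higher and 1.12% lower. Of 18 tested macrophage and leukocyte markers 1 was higher (Cd163, log2 0.59) and 2 lower (Tyrobp, -1.16, and Fcer1g, -0.75). Of the 18 estimates 15 were below 0, with a median of -0.29, and in WT the median was 0.25. The summed level of these markers was 70.5 to 91.7 CPM in diabetes and 73.5 to 112 CPM in unloading, ranges that overlap. Of 10 pericyte and smooth muscle markers 1 was lower (Mcam, log2 -0.77), and of 8 satellite cell markers 1 was higher (Sdc4, 1.01). Of the 8 satellite cell estimates 4 were below 0. The summed level of these 8 was 56.5 to 72.9 CPM in diabetes and 71.2 to 110 CPM in unloading, ranges that overlap. The 10 fibroblast, 8 tenocyte, 9 adipocyte, 4 erythrocyte, 10 Schwann cell and 5 lymphatic markers tested had 0 calls. Of 37 collagen and matrix genes 1 was called, the protease inhibitor gene Timp1, which was lower (log2 -2.35) at 0.0492 to 0.180 CPM against 0.313 to 1.13 CPM, near the limit of detection. Of 17 tendon and cartilage genes 0 were called. Against the shared controls the collagen list had 19 members lower in diabetes, beside 2.54% of all genes, and 12 in unloading, beside 3.20%, with medians of -0.73 and -0.57. These counts were not repeated with GC and length trends removed.

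The same comparison in WT muscle uses 8 other libraries. There 464 genes were called, 302 higher (2.31%) and 162 lower (1.24%) in diabetes, which is 3.56% of those tested together. Of the 400 genes called in Notch2-mKO, 397 had the same sign in WT, beside 71.5% of all genes, and 232 were called in both genotypes, which is 58% of the Notch2-mKO calls and 50% of the WT calls. The 3 of opposite sign were Timp1 (log2 -2.35 in Notch2-mKO and 0.65 in WT), Sfpi1 (-1.10 and 0.21) and Zbtb25 (-0.64 and 0.06), and none of them was called in WT. The fatty acid list had 20 members higher and 1 lower in WT, with a median of 0.48. Fabp3 had a log2 fold change of 1.96 there, Myh3 of 3.28, Rbm3 of -0.99, Myh2 of 1.38 and Myh1 of -0.94.

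**Figure D5:**
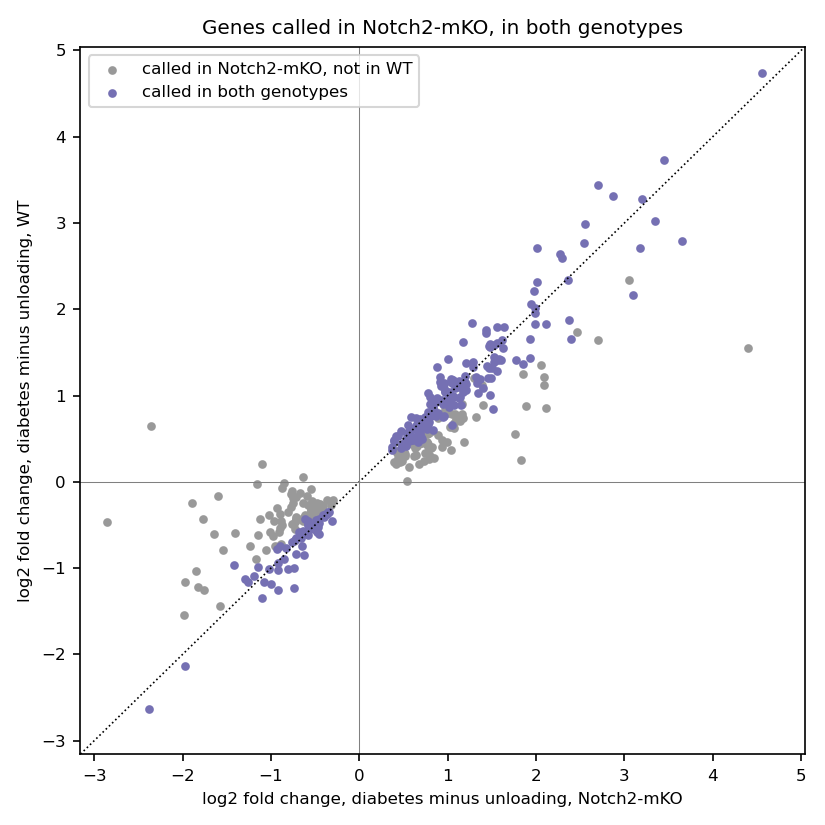
Log2 fold change of diabetes minus unloading in Notch2-mKO (x axis) and in WT (y axis) for the 400 genes called in Notch2-mKO, with genes called in both genotypes in purple, the others in grey and the dotted line marking equal values. Of these genes 397 lie in the quadrants of equal sign, and the 3 exceptions lie above 0 on the y axis.

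The difference between genotypes in this comparison was tested directly as an interaction. With edgeR 0 of 13048 genes were called, and 239 (1.83%) had an unadjusted p below 0.05. With DESeq2, which took 17191 genes, 0 were called and 269 had an unadjusted p below 0.05. The smallest adjusted p in edgeR was 0.9999. The share of 1.83% is below what the limit of 0.05 lets through when no gene differs. Recovery of known changes was not simulated for the interaction, so 0 calls do not show that the genotypes respond alike. For the genes called higher in Notch2-mKO the median log2 fold change was 0.97 in Notch2-mKO and 0.82 in WT, and for those called lower -0.72 and -0.48. These medians are set by the choice of the genes in Notch2-mKO and are no test of a genotype effect. Slc25a25, for example, had 3.09 in Notch2-mKO and 2.17 in WT, Nr4a3 3.65 and 2.79, and Nr1d1 -1.54 and -0.79, and no such gap passed the interaction test.

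Against the 4 untreated Notch2-mKO libraries 730 genes were called in diabetes (5.59%) and 953 in unloading (7.30%). In diabetes 398 were higher and 332 lower, and in unloading 535 were higher and 418 lower. Upper quartile scaling turned the split to 323 higher and 388 lower in diabetes and to 435 and 547 in unloading. The log2 level of genes below 42% GC minus that of genes above 56% GC also differed. Its mean was -0.84 in control, -0.38 in diabetes and -0.50 in unloading, with overlapping ranges. With GC and length trends removed 582 genes were called in diabetes, 435 of them among the 730. In unloading 1081 were called, 737 of them among the 953. The part of this shift in the values against control given above was not tested. Both comparisons share the control libraries, so their values stand side by side and are not tested against each other.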

How the data were processed

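Gene expression was measured by RNA sequencing in 24 gastrocnemius libraries, of which the 8 of Notch2-mKO diabetes and unloading were compared. The authors deposited estimated counts per gene (expected counts, not whole), with RefSeq gene models per the file headers and, per the submitters' processing notes, build mm10. No aligner or counter is named, that is, not given in the sources used here. Another 32 columns of values normalized by the authors were not used. The 36172 gene models were joined across tables by gene identifier, and counts were rounded.

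All 24 libraries entered 1 edgeR 4.0.16 model (R 4.3.3), which had 1 coefficient for each of the 6 groups and used TMM scaling. The default expression filter kept 13048 genes. Groups came from the sample titles. Quasi-likelihood F tests were adjusted by Benjamini-Hochberg over all genes tested, and a gene was called below 0.05. Other fits (DESeq2 1.42.0, other scalings and filters, a replicate block, removal of GC and length trends, 1 library left out) are in the closing section. On simulated counts with 200 changed genes among 12928 tested for this comparison, edgeR recovered 20.9%, 61.2% and 93.9% of changes of 1.5, 2 and 4-fold, and 3.3% of its calls were false. No replicate pair was within sampling noise (the lowest chi-square per gene was 14.6).

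Genes were named by rule: the 12 largest higher and lower calls without overlap whose mean over the 8 libraries reached 2 CPM, 6 chosen whatever their p, and up to 4 members of each described list by p. Members counted in a described list, genes with a printed promoter and genes set beside these were named as well, after their values were seen. The comparison and its 44 gene lists were chosen with earlier results of these data known. Coordinates and promoters are from RefSeq GRCm38.p6. Single values of 2 list members are not reported here.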

Additional observations from a re-analysis of the deposited data

Results flagged for a closer look

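In the groups of 4 libraries, 14 of 168 sets of values had 1 library far from the other 3, by a rule that chance meets in about 5% of groups. Unloading replicate 4 accounts for 5 of these. It was far above the other unloaded libraries for Fbxo32 (1234 CPM), Trim63 (822 CPM), Ppp1r15a (111 CPM), Pik3r1 (23.7 CPM) and Psmc3 (431 CPM). Unloading replicate 1 accounts for 3, being high for Stbd1 (134 CPM), Timp1 (1.13 CPM) and its TMM factor (1.28). Unloading replicate 2 was low for Atf5 (60.6 CPM) and Tyrobp (1.15 CPM). In diabetes, replicate 4 was high for Tmem37 (13.1 CPM), Mstn (103 CPM) and Slc25a30 (5.05 CPM) and low for Ech1 (269 CPM).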

How the results depend on the processing

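The calls in Notch2-mKO diabetes against unloading numbered 605 with DESeq2 and 332 to 439 under the other 8 settings that kept all libraries. They ranged from 195 to 342 with 1 library left out. Same-numbered libraries of the 2 groups deviated together with correlations of -0.088 to 0.067, and differently numbered ones reached -0.13 and 0.13. No effect shared by replicate number was seen, but such values cannot tell whether the numbers pair the samples. With a replicate block 343 genes were called, 331 of them among the 400. Of 76 named genes that were called, 33 kept the call in each alternative run, 43 lost it in at least 1, and 0 changed sign. The log2 fold change of Fbxo32 turned to 0.82 without unloading replicate 4 and ranged from -0.56 to 0.82 with 1 library left out. That of Fbxo30 turned to 0.00083 with RLE factors, 0.0024 with upper quartile factors, 0.0023 with the filter at a 2 CPM mean and 0.0016 with only the groups compared in the fit, and ranged from -0.17 to 0.14 with 1 library left out. That of Mstn turned to -0.057 with the GC and length trend removed and to -0.042 with the block as well, and ranged from -0.13 to 0.14 with 1 library left out. In WT 257 genes were called with only the compared groups in the fit, and 278 to 468 without 1 library. In diabetes against control the count was 1119 with DESeq2, 475 with the block and trend removal, 1592 with only the compared groups and 153 to 995 without 1 library. In unloading against control it was 1457, then 331 with only the compared groups, and 411 to 1127. The difference between genotypes had 0 calls under each alternative. The cause of these shifts was not tested. Depth limits genes near 0.0783 CPM, such as Timp1.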

Other observations

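Some genes outside the lists had values that extend those above. They were chosen after their values were seen, and no theme was tested. Enzymes of lipid handling were among the genes higher in diabetes than in unloading. Ephx2, an epoxide hydrolase, was at 37.5 to 49.6 CPM against 14.9 to 27.4 CPM (log2 0.95, edgeR adjusted p = 0.00167). The acyl-CoA synthetase gene Acsf2 had a log2 fold change of 1.17 and Hsdl2 of 0.70. Lmod2, an actin filament nucleator of the sarcomere, was at 176 to 248 CPM against 83.1 to 115 CPM (log2 1.16).

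Interferon-inducible genes outside the list were also higher, at low levels. Ifi205 was at 4.81 to 7.73 CPM in diabetes and 0.783 to 1.74 CPM in unloading (log2 2.11, edgeR adjusted p = 0.00193), with Tgtp1 (1.93), Mnda (1.49), Gbp7 (1.34) and the class I histocompatibility gene H2-Q4 (1.15). These belong to families of similar copies, and counts may be split among copies. Among lower genes, the citrate carrier Slc25a1, which exports citrate for lipid synthesis, had a log2 fold change of -1.15, with 1.75 to 3.63 CPM against 2.71 to 10.3 CPM. Transketolase (Tkt), of the pentose phosphate pathway, was at 12.7 to 17.0 CPM against 19.3 to 28.2 CPM (log2 -0.72), and the lectin gene Lgals1 at 118 to 153 CPM against 198 to 310 CPM (log2 -0.86).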
